A study of Mus musculus with 12 samples.

Results

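The response of bone marrow-derived macrophages to IFNγ + LPS was examined with the DGAT1 inhibitor T863 (DGAT1i) present in both the activated and the resting cells, so that the inhibitor itself did not differ between the groups compared. The comparison rests on 6 of the 12 libraries of the series, chosen by their labels alone: 3 libraries of macrophages given IFNγ + LPS and DGAT1i, and 3 of resting (M0) macrophages given DGAT1i. Cells of C57BL/6 mice, 6 to 8 weeks old, had been grown from bone marrow for 7 days with 20 ng/ml CSF-1, and all groups share this culture. Activated cells received 50 ng/ml IFNγ and 20 ng/ml LPS, T863 was used at 50 μM, and both treatments lasted 18 h. The other 6 libraries, M0 and IFNγ + LPS without T863 (3 each), entered the same model and served to test where activation with DGAT1i differed from activation without it. Whether the cells without T863 received its solvent is not stated for RNA sequencing, and no time is given in the labels of M0. For 2 of the 3 M0 libraries with DGAT1i the free-text descriptions number the compound T864 and T865, whereas their source labels give T863, which was followed here. Macrophages grown in culture with CSF-1 stand for macrophages of no particular tissue and 1 compound at 1 dose stands for loss of DGAT1 activity.

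DGAT1 is one of the enzymes that make triacylglycerol by adding a fatty acid to diacylglycerol, and triacylglycerol is stored in lipid droplets. IFNγ acts through the JAK kinases and the factors they activate, which switch on IRF1 and a large set of antimicrobial and antigen-presenting genes. LPS acts through TLR4 on NF-κB and on the IRFs that induce type I interferon, and together these signals drive macrophages to nitric oxide, itaconate, inflammatory cytokines and glycolysis while cell division stops.

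Between 4996014 and 6621671 reads were counted on genes in each of the 6 libraries, and 1 CPM, the unit of a count scaled to the size of its library, was worth 4.28 to 7.58 reads. Replicates of a group correlated at 0.985 to 0.990 (Pearson's r of log2 CPM over genes). Reads of mitochondrial genes made up 5.56% to 6.19% of the M0 libraries with DGAT1i and 4.52% to 5.32% of the activated ones, and the part of this in the results was not tested. Markers of the labelled cell type were present: macrophage lineage genes summed to 21612 to 23746 CPM in M0 and 12756 to 13901 CPM in IFNγ + LPS, both with DGAT1i, with each of the 15 genes detected. Markers of erythroid, mast and stromal cells summed to 1.17 CPM or less in every library, and T and NK cell markers to 3.50 to 6.10 CPM, with Cd3e, Cd3g, Cd8a, Ncr1, Nkg7 and Trac at 0 reads. B cell markers summed to 8.71 to 12.2 CPM in M0 and 1.03 to 1.67 CPM after activation, with Ebf1, Iglc2, Ms4a1 and Pax5 at 0 reads. RNA of a bulk culture cannot tell fewer cells of a type from less RNA per cell. Nothing in the labels ties replicates to separate animals or cultures, so p-values measure the spread between these samples, which may be technical.

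Activation in the presence of DGAT1i moved most expressed genes. Of 11760 genes tested, 4152 were higher and 4151 lower in IFNγ + LPS with DGAT1i than in M0 with DGAT1i (edgeR's quasi-likelihood test, p adjusted after Benjamini and Hochberg, threshold 0.05), 35.3% in each direction, the background for the counts of list members given below. Changes over 2-fold were counted separately because of this breadth: 1637 genes rose (13.9% of those tested) and 1799 fell (15.3%) by more than that, among them 482 that rose and 393 that fell over 8-fold. The balance of the directions rests on the scaling, by the trimmed mean of M-values (TMM). With library size as the only scaling 2333 genes were higher and 6799 lower, 25.5% of the calls instead of 50% being higher, and the median log2 fold change was -0.43. Small changes are therefore given relative to the TMM scaling. The 3 libraries of one group did not overlap with those of the other for 8527 genes (72.5%). The median log2 fold change over all genes tested was -0.012, the value beside which the medians of the gene groups stand. For every gene whose fold or library values are given below, the groups did not overlap, other than Cxcl2, Dgat1, Plin2, Msr1, Sdha, Ptges2, Ngp, Ltf, Chil3 and Fcgr2b. No overlap was a condition for naming the 10 largest increases and decreases, so for them it is no result. Values after ± are SDs of 3 libraries for CPM and SEs for log2 fold changes. Of the genes over 2-fold, 1446 of those that rose and 1675 of those that fell were protein coding.

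**Figure D1:**
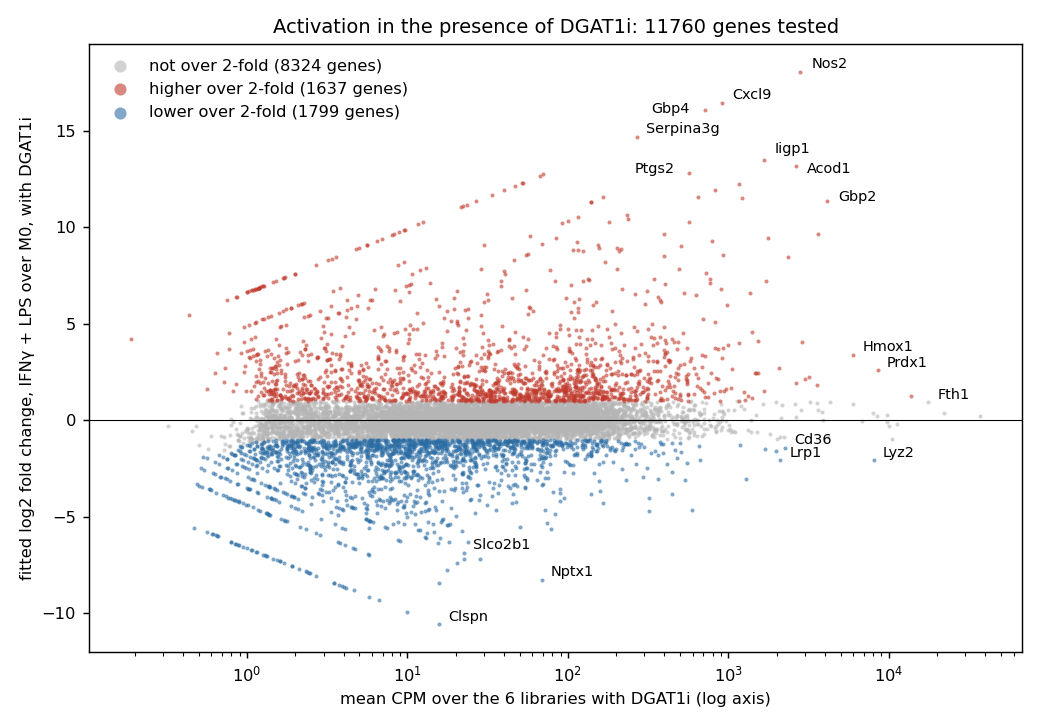
Fitted log2 fold change of IFNγ + LPS over M0, both with DGAT1i, for the 11760 genes tested (y axis) against the mean CPM over the 6 libraries (x axis, log scale). Red points are the 1637 genes that rose and blue points the 1799 that fell over 2-fold with an adjusted p under 0.05. Diagonal lines of points hold genes with no reads, or only a few, in one group, whose fitted values are not bounds.

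The genes with the largest fitted increases were absent or nearly absent at rest. Nos2, the inducible nitric oxide synthase, had 0 reads in the 3 M0 libraries with DGAT1i and 5532, 5961 and 5392 CPM in the activated ones. It was at least 41616-fold higher, taking a floor of 3 reads over the resting group, as for the bounds that follow. Acod1, which makes itaconate, went from 0.266, 0.426 and 0.924 CPM to 5349, 5299.7 and 5188 CPM (log2 fold change 13.20 ± 0.12 (SE), adjusted p = 3.3e-61). Per kb of exon, Acod1 was at 2013 and Nos2 at 1276 CPM in activated cells, the highest levels of the nitric oxide, arginine and itaconate list. Cxcl9, a chemokine that draws T cells through CXCR3, had 0 reads at rest and 1852, 1822 and 1784 CPM after activation, at least 13443-fold higher. Gbp4, a guanylate-binding GTPase of cell-autonomous defence, likewise had 0 reads and then 1365, 1476 and 1470.3 CPM, at least 10600.4-fold higher. Iigp1, an immunity-related GTPase, rose from 0.266, 0.426 and 0.132 CPM to 3517, 3289 and 3208 CPM. Ptgs2, the inducible cyclooxygenase of prostaglandin synthesis, rose from 3 reads in all to 1213, 1055 and 1145 CPM, a ratio of 8399.9 with an exact 95% counting interval of 2874 to 40736. The serine protease inhibitors Serpina3g and Serpina3f had 0 reads at rest. Serpina3g was found at 593, 510.5 and 512 CPM after activation, at least 3984-fold higher. Serpina3f was found at 151, 131 and 139 CPM, at least 1037-fold higher. Il12rb1, a chain of the receptors of IL-12 and IL-23, was at 126, 144 and 134 CPM after 0 reads, at least 993-fold higher. BC023105, at 98.2, 110.4 and 105 CPM, completed the 10 and was at least 772-fold higher. Serpina3f and Serpina3g belong to a cluster of close copies, so that reads may have been shared between them.

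**Figure D2:**
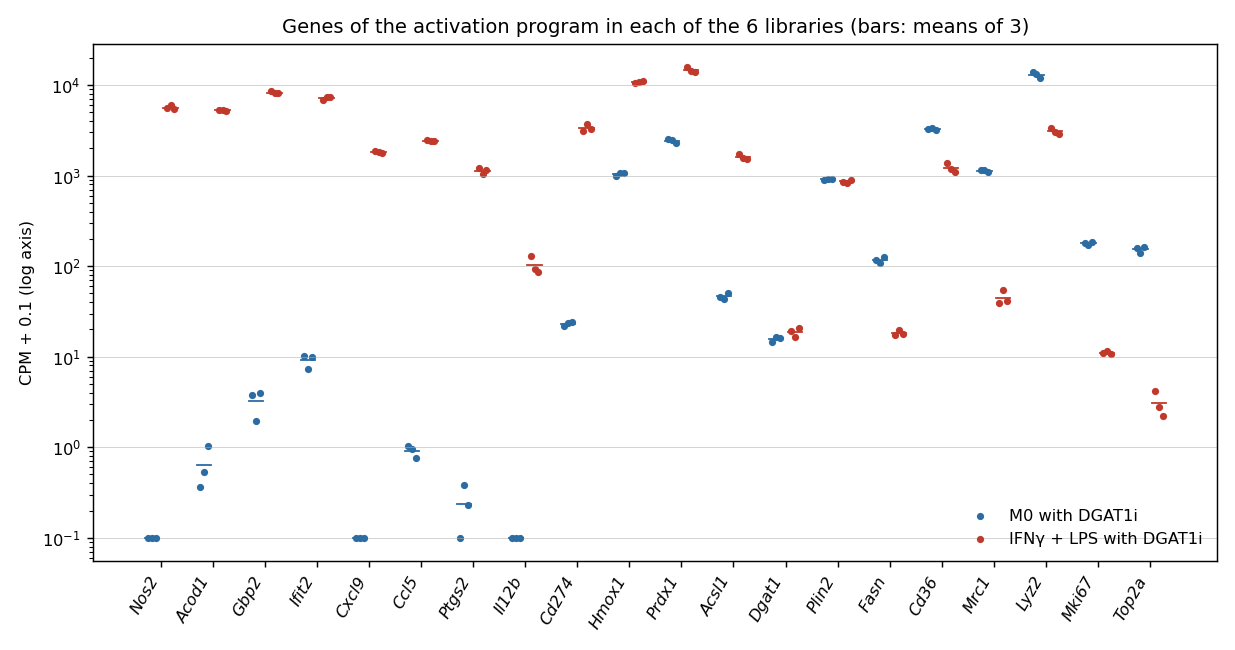
CPM plus 0.1 (y axis, log scale) of 20 genes in the 3 M0 libraries with DGAT1i (blue) and the 3 IFNγ + LPS libraries with DGAT1i (red); points are libraries and bars the means of 3. Induced genes stand at the left, with Nos2, Cxcl9 and Il12b at 0 CPM in the resting libraries, and Dgat1 and Plin2 are among the few whose groups lie close together.

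Sequence before the start of some of these genes is shown because the induced and the silenced programs are each known for particular binding motifs. RefSeq promoters on GRCm38.p6 were found for 8938 of the 11760 genes tested, and the 250 bases before the start were searched on both strands for the interferon-stimulated response element ISRE (GAAANNGAAA), the STAT site GAS (TTCNNNGAA), the NF-κB site kB (GGGNNTTTCC), the NRF2 site ARE (TGACNNNGC) and the E2F site (TTTGGCGC or TTTCGCGC). Of the 27025 promoters in the table, 3.05% held an ISRE, 7.13% a GAS, 1.41% a kB, 10.2% an ARE and 0.673% an E2F match. Among the 8938 of genes tested here, these shares were 2.95%, 5.95%, 1.44%, 12.3% and 1.39%. For 72.2% of the 8938 the first transcribed bases were found at the start of a GENCODE transcript. For the others the start was not borne out in this way. Of the 10 genes above, Cxcl9, Serpina3g, Acod1, Ptgs2 and Serpina3f had a promoter in the table, of which Serpina3g and Serpina3f held a match. A match is a description of letters and not a bound site. Since fewer than 80% of the genes that rose over 2-fold, of the IFN-γ list and of the type I interferon list had a promoter, shares among them are not compared. In lists above that limit, 3 of 16 promoters of the MHC class I list held an ISRE (B2m, H2-T22 and H2-T23), 6 of 15 of the NRF2 list an ARE and 5 of 26 of the DNA replication list an E2F match (Mcm5, Mcm6, Pola1, Rfc3 and Uhrf1, of which only Rfc3 rose). The mitosis list held an E2F match in 1 of 24 promoters and the MHC class I list in 2 of 16, and the unfolded protein response list held an ARE in 5 of 24. The promoters of 7 genes follow, 5′ to 3′ in lower case with every match in capitals. They are those of Serpina3g and Serpina3f from the 10 largest increases, of Gbp2, Gbp5 and Cxcl10 from the interferon response, of Prdx1, which gained the most CPM, and of Mcm6, a gene of DNA replication that fell. Serpina3g (chr12:104235897-104236146, plus strand) holds a kB and a GAS match, Serpina3f (chr12:104214294-104214543, plus strand) a GAS match, Gbp2 (chr3:142620413-142620662, plus strand) an ISRE match, Gbp5 (chr3:142496684-142496933, plus strand) an ISRE, a kB and a pair of GAS matches, Cxcl10 (chr5:92348890-92349139, minus strand) an ISRE and an ARE match, Prdx1 (chr4:116685349-116685598, plus strand) an ARE match, and Mcm6 (chr1:128359706-128359955, minus strand) E2F matches, of which the pair farthest from the start overlap.
Serpina3g: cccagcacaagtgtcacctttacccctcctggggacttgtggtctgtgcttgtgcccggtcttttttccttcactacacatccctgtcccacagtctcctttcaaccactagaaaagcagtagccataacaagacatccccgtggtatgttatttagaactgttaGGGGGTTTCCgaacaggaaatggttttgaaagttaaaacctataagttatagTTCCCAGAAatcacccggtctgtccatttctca
Serpina3f: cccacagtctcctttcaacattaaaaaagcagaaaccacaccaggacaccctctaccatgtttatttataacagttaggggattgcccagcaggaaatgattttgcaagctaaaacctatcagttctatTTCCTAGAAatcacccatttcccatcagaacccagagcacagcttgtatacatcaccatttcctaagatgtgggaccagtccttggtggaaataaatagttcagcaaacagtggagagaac
Gbp2: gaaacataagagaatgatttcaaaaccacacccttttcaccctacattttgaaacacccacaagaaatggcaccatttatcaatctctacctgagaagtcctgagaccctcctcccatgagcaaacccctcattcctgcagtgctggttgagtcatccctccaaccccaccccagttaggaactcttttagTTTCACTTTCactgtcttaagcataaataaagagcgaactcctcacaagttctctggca
Gbp5: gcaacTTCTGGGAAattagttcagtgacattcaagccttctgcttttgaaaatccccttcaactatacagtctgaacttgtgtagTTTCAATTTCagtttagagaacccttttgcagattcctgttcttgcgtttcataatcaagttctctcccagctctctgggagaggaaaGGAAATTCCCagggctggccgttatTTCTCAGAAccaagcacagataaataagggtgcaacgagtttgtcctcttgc
Cxcl10: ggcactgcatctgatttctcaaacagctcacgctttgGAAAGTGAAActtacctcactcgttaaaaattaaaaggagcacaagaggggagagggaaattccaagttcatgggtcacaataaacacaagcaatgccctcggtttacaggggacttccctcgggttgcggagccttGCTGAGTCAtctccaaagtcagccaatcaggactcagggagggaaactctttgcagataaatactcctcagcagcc
Prdx1: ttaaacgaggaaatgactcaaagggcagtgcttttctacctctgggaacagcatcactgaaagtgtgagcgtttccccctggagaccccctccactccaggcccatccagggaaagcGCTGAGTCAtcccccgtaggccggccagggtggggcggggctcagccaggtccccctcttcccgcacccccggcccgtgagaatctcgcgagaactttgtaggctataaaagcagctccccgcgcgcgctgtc
Mcm6: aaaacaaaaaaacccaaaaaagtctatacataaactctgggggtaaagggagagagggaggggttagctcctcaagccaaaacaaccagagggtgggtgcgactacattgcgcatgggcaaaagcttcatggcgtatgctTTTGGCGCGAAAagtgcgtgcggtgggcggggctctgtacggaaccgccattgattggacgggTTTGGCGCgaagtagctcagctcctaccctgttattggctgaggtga

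Interferon genes rose most. Of 26 tested genes of the IFN-γ pathway and its GTPases, 25 rose and 1 fell, with a median log2 fold change of 6.90, the highest of the 26 lists. Gbp2, with the promoter shown above, went from 3.72, 1.85 and 3.83 CPM to 8534, 8095 and 8114 CPM and had the highest level per kb of the list (log2 fold change 11.34 ± 0.11 (SE), adjusted p = 3.0e-50). Gbp5 rose from 0.399, 0.568 and 0.396 CPM to 2371, 2455 and 2156 CPM. Genes that carry the signal rose too. The kinase gene Jak2 rose 8.22-fold to 352 ± 19.4 CPM (SD, n = 3) and Irf1, a transcription factor of the response, 63.3-fold to 1925 ± 52 CPM. Socs1, which restrains JAK signalling, rose from 0.905 ± 0.215 to 427 ± 9.63 CPM. The gene that fell was Ifngr1, the ligand-binding chain of the IFNγ receptor, at 134, 131 and 125 CPM in M0 and 56, 54.7 and 47.6 CPM in activated cells (log2 fold change -1.30 ± 0.072, adjusted p = 2.4e-23).

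All 30 tested genes of the type I interferon list rose, with a median log2 fold change of 5.10. Ifit2, which binds viral RNA complexes, went from 9.96, 7.24 and 9.9 CPM to 6810.5, 7367 and 7426 CPM, the largest fitted change of this list. Bst2, the membrane tether of budding virus, rose from 93.4, 92.7 and 87.6 CPM to 792, 751 and 779 CPM. Rsad2, an antiviral radical SAM enzyme, reached 4339, 4909 and 4865 CPM from 13.4, 10.2 and 15.8 CPM. Irf7, which amplifies the type I response, rose 114-fold, Mx1 383-fold and Isg15, a ubiquitin-like modifier, 135-fold. Irf9 moved least, from 49.8 ± 0.644 to 73.8 ± 7.98 CPM, and passed the test (adjusted p = 2.8e-09), but not with library size as the only scaling (0.15 on the log2 scale, adjusted p = 0.074).

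Antigen presentation rose as a block. The 10 tested genes of MHC class II presentation all rose, with a median log2 fold change of 4.62, and so did the 19 of MHC class I and the immunoproteasome, with a median of 3.36. Ciita, the master regulator of class II genes, went from 0.266, 0 and 0.528 CPM to 95.1, 84.7 and 96.9 CPM. Cd74, the invariant chain, rose 20.2-fold to 715 ± 86.3 CPM and H2-Ab1 56.8-fold to 227 ± 25 CPM. Ctss, the protease that trims the invariant chain, was already at 2304 ± 146 CPM at rest and rose to 3370.2 ± 144 CPM. Of class I, H2-D1 went from 1602, 1586 and 1557 CPM to 5561, 5564 and 5653 CPM, B2m rose 4.76-fold, Erap1, the trimming peptidase with the smallest rise of the list, 2.13-fold, the peptide transporter gene Tap1 18.5-fold and Nlrc5, the class I regulator, 16.3-fold. H2-D1, H2-K1, H2-Q6 and H2-Q7 are close copies between which reads may have been split.

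Cytokine genes rose with one exception. Of 16 tested cytokine genes 15 were higher and 1 lower, with a median log2 fold change of 4.84. Il1rn, the antagonist of the IL-1 receptor, had the highest level per kb of them and rose from 26.7, 25.4 and 32.1 CPM to 2505, 2926 and 2672 CPM. Tnf rose from 35.5, 39.7 and 36.7 CPM to 437, 368 and 354 CPM. Il12b, which encodes p40, had 0 reads at rest and 129.7, 93.7 and 87.1 CPM after activation, at least 769-fold higher. The first activated library was the highest, and its adjusted p was 1.7e-04. Il6 went from 0 reads to 6.38, 8.55 and 5.37 CPM, at least 50.3-fold higher. Il1b rose from 2 reads over the resting group to 28.2, 25.7 and 17.7 CPM, a ratio of 267 with an interval of 73.4 to 2214. Per kb of exon, Il1rn was at 488 CPM in activated cells, against 12.5 for Il1b and 2.79 for Il6. Tgfb1 fell from 212 ± 8.28 to 107 ± 6.19 CPM (log2 fold change -0.98 ± 0.060, adjusted p = 1.9e-21).

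Of 15 chemokine genes 9 were higher, 5 lower and 1 did not pass, beside 35.3% of all genes each way. Ccl5, which draws T cells and monocytes, rose from 0.930, 0.852 and 0.660 CPM to 2470.0, 2412 and 2395 CPM. Cxcl10, which shares the receptor of Cxcl9, rose from 0.399, 0.142 and 0.660 CPM to 1280.0, 1272 and 1308 CPM. Ccl2 rose 19.7-fold to 625 ± 80.7 CPM and Cxcl16 22.6-fold to 996 ± 75.8 CPM. Ccl3 and Ccl4, the macrophage inflammatory proteins, went the other way. Ccl3 fell from 46, 53.8 and 47.4 CPM to 10.3, 10.8 and 9.34 CPM, each activated library at less than any resting one. Ccl4 fell likewise, from 39.2, 35.2 and 32.5 CPM to 9.47, 8.97 and 8.64 CPM. Cxcl2, which draws neutrophils, did neither. Cxcl2 stood at 2.66, 3.41 and 3.17 CPM in M0 and 2.68, 4.8 and 3.74 CPM after activation, and the groups overlapped (adjusted p = 0.39).

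Of 30 genes of toll-like receptor and NF-κB signalling, 25 were higher and 4 lower, with a median log2 fold change of 1.19. Inhibitors of the pathway were among those that rose most: Nfkbie 14.4-fold, Nfkbia 9.08-fold to 289 ± 18.3 CPM and Tnfaip3, which encodes A20, 5.17-fold. Tlr9, the receptor of unmethylated DNA, rose from 2.92, 2.27 and 2.11 CPM to 85.8, 135 and 112 CPM. Tlr4, the LPS receptor, fell from 128 ± 5.24 to 96.6 ± 3.23 CPM and Tlr8 from 159 ± 9.5 to 56.3 ± 3.04 CPM. Co-stimulatory and checkpoint genes gave 9 higher and 4 lower of 14, with a median of 1.87. Cd274, which encodes PD-L1, rose from 21.8, 23.6 and 24 CPM to 3089, 3766 and 3315 CPM. Cd86, the ligand of CD28, rose from 1.76 ± 0.924 to 401 ± 16 CPM and Cd40 65.6-fold. Vsir, which encodes the checkpoint VISTA, fell from 451, 441 and 426 CPM to 94.1, 81.6 and 97.1 CPM.

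**Figure D3:**
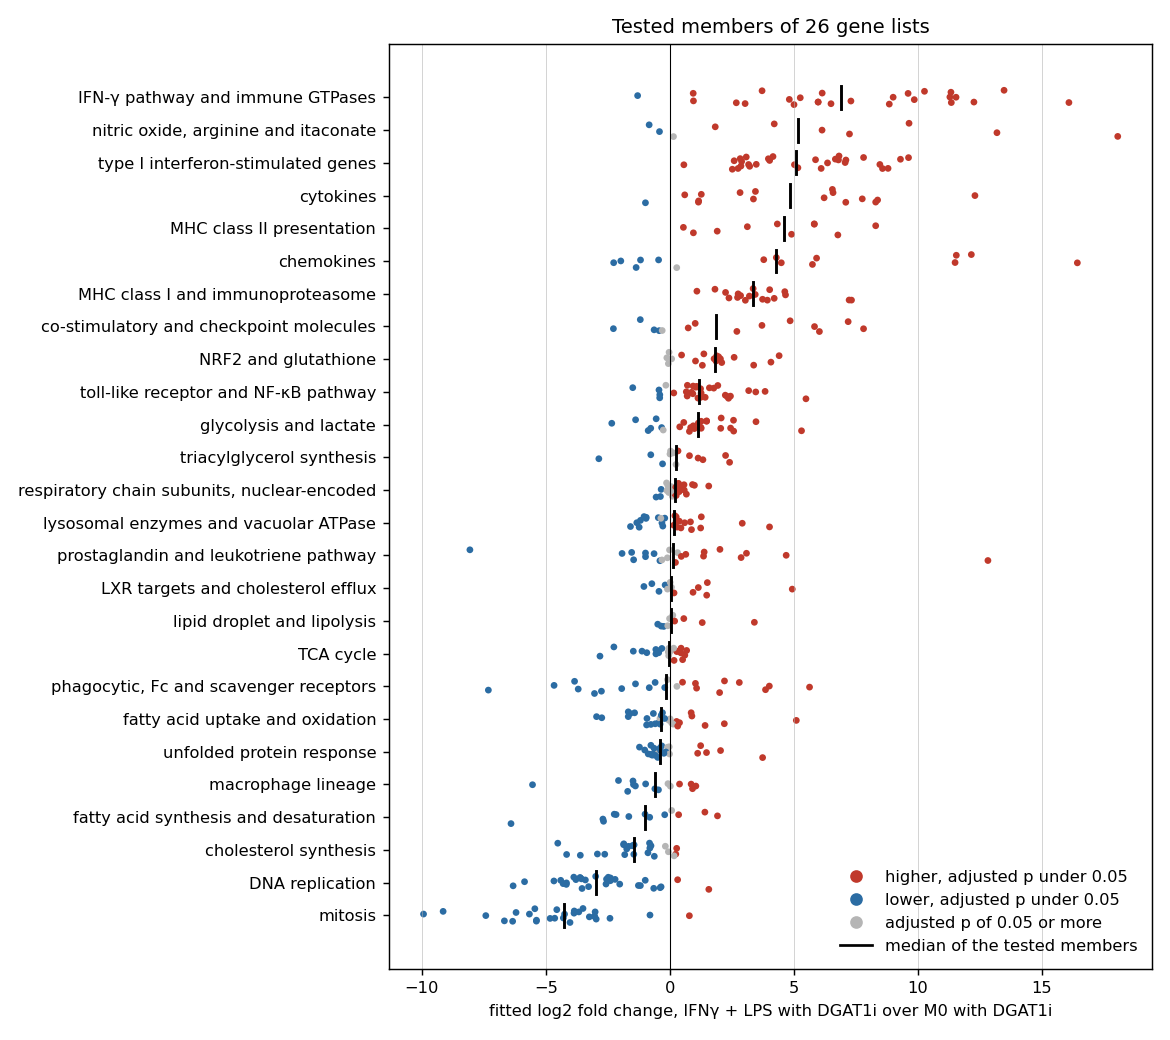
Fitted log2 fold change of IFNγ + LPS over M0, both with DGAT1i (x axis), of the tested members of 26 gene lists (y axis); red and blue points passed an adjusted p under 0.05, grey points did not, and black bars are list medians. Interferon, nitric oxide and cytokine lists lie at the right, lists of the lipid pathways lie near 0 or to its left, and mitosis, with a median of -4.27, is farthest left.

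Genes that supply nitric oxide synthesis rose with Nos2. Of 10 tested genes of nitric oxide, arginine and itaconate metabolism 7 rose and 2 fell. Slc7a2, an arginine transporter, went from 11.2, 9.94 and 10.7 CPM to 835, 725 and 690.4 CPM. Ass1, which serves to regenerate arginine from citrulline, rose from 1.77 ± 0.406 to 271 ± 37.2 CPM, and Gch1, needed for the cofactor of nitric oxide synthase, 3.56-fold. Slc7a1, the other arginine transporter of the list, fell from 47.7, 48.1 and 55.8 CPM to 29.4, 29.4 and 26.2 CPM (adjusted p = 2.9e-11), and Odc1 of polyamine synthesis fell from 87.2 ± 4.75 to 65.3 ± 4.84 CPM.

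Of 22 prostaglandin and leukotriene genes 10 were higher and 8 lower (6 and 11 with library size alone), shares near the 35.3% of all genes in each direction, with a median log2 fold change of 0.11. Pla2g4a, the phospholipase that releases arachidonic acid, rose 7.34-fold to 243 ± 13.6 CPM, and Ptges, the inducible PGE2 synthase, went from 1.73, 0.852 and 2.51 CPM to 48.6, 46.3 and 39.5 CPM. Hpgd, which degrades prostaglandins, went the other way. It was at 6.51, 3.12 and 6.6 CPM in M0 and had 0 reads in the 3 activated libraries, at least 25.4-fold lower. Hpgds, the prostaglandin D synthase, fell from 266 ± 4.69 to 97.1 ± 12.9 CPM, Alox5ap, which serves leukotriene synthesis, from 215 ± 9.51 to 163 ± 11.2 CPM and Lta4h from 56.7 ± 2.75 to 28.7 ± 3.03 CPM. Ptges2, a constitutive synthase, was at 12.2 ± 2.21 and 11.3 ± 1.28 CPM and did not pass (adjusted p = 0.60), other than with library size alone, where it was lower (-0.52 on the log2 scale, adjusted p = 0.0030). The PGE2 receptor gene Ptger2 rose from 11.6 ± 1.34 to 18.3 ± 3.01 CPM (not past the test with library size alone, adjusted p = 0.16), while Ptger4 was at 8.87 ± 1.15 and 11.1 ± 1.1 CPM (adjusted p = 0.094).

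Genes of glycolysis mostly rose. Of 27 genes of glucose uptake, glycolysis and lactate export, 20 were higher and 6 lower, with a median log2 fold change of 1.15. The glucose transporter genes Slc2a1 and Slc2a6 rose 4.21-fold and 39.8-fold. Hk3, a hexokinase, went from 488, 439.9 and 454 CPM to 2528, 2507 and 2528 CPM. Pfkfb3, which makes the activator of phosphofructokinase, rose 11.1-fold. Ldha rose from 658 ± 22.4 to 1841 ± 95.4 CPM and the lactate exporter gene Slc16a3 5.94-fold, beside Hif1a, 5.97-fold. Ldhb fell from 7.35 ± 0.491 to 1.46 ± 0.634 CPM and Aldoc from 21.4 ± 2.15 to 8.21 ± 1.34 CPM. Pkm, the gene of the list with the most reads, rose from 1875 ± 100.2 to 3362 ± 77.7 CPM.

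Of 25 genes of the TCA cycle 8 were higher and 10 lower, near the 35.3% of all genes in each direction, with a median log2 fold change of -0.04, near that of all genes (2 higher and 18 lower with library size alone). Among those that fell, Idh2, a mitochondrial isocitrate dehydrogenase, went from 73.7, 70.3 and 77.6 CPM to 11.1, 10.8 and 9.34 CPM. Idh1, the cytosolic enzyme, went from 193, 181 and 172 CPM to 65.3, 62.6 and 69.3 CPM and Idh3a from 40.1 ± 1.99 to 18.4 ± 3.01 CPM. Sdhd and Sdhb of succinate dehydrogenase rose 1.6-fold and 1.52-fold, and Sdha was at 190.0 ± 3.5 and 187 ± 2.69 CPM (adjusted p = 0.71; -0.44 and called lower with library size alone). Of 30 nuclear-encoded subunits of the respiratory chain, 17 rose and 3 fell (5 and 16 with library size alone), and 1 rose over 2-fold. That was Cycs, which encodes cytochrome c, from 31.3 ± 2.27 to 93 ± 7.57 CPM. Atp5b of the ATP synthase rose from 591 ± 20.5 to 752 ± 42.5 CPM (-0.073 on the log2 scale with library size alone), and Ndufs1 of complex I fell from 81 ± 2.7 to 55.3 ± 2.02 CPM.

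Expression of the inhibited enzyme itself did not pass the test between the groups. Dgat1 was at 14.6, 16.3 and 16 CPM in M0 with DGAT1i and 18.9, 16.3 and 20.8 CPM in IFNγ + LPS with DGAT1i, where the second activated library lay within the resting range (log2 fold change 0.25 ± 0.13 (SE), adjusted p = 0.091). Without that library the log2 fold change was 0.34 (adjusted p = 0.040), and with library size as the only scaling it was -0.17 (adjusted p = 0.25). Dgat2, the other enzyme of this step, had 17 reads over the resting and 24 over the activated group, too few to be tested. An inhibitor acts on the protein, so these counts are no check of its action. Of 13 tested genes of triacylglycerol synthesis, 6 rose and 3 fell (5 and 6 with library size alone; 35.3% of all genes each way), with a median log2 fold change of 0.25. Gpd2, the mitochondrial glycerol-3-phosphate dehydrogenase, rose 5.32-fold to 138 ± 2.5 CPM, Gpat3, an acyltransferase of the first step, from 1.44 ± 0.154 to 6.91 ± 1.37 CPM, Gk, glycerol kinase, 2.21-fold and Agpat4 2.53-fold. Lpin1, a phosphatidate phosphatase that supplies diacylglycerol, fell from 35.5, 30.8 and 35.8 CPM to 4.53, 3.55 and 6.07 CPM, while its paralog Lpin2 rose from 126 ± 5.37 to 219 ± 15.9 CPM. Gpam, which shares the reaction of Gpat3, fell from 18.2 ± 0.611 to 10.7 ± 0.861 CPM.

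Lipid droplet and lipolysis genes gave 4 higher and 3 lower of 10 (2 and 6 with library size alone), beside 35.3% of all genes each way. Plin2, which coats lipid droplets, was at 890.0, 926 and 922 CPM and 859.6, 831 and 897 CPM and did not pass (adjusted p = 0.16). It was called lower with library size alone (-0.50 on the log2 scale, adjusted p = 2.7e-12) and when weakly counted genes were kept (-0.13, adjusted p = 0.039). Hilpda, an inhibitor of triacylglycerol lipase, rose from 7.57, 7.24 and 9.11 CPM to 97.6, 72.6 and 85.5 CPM. Pnpla2, which encodes that lipase (ATGL), rose 1.48-fold (not past the test with library size alone, adjusted p = 0.063) and Lipe, hormone-sensitive lipase, 2.48-fold, while Lipa, the lysosomal acid lipase, fell from 1549 ± 15.3 to 1106 ± 64.2 CPM.

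Uptake and oxidation of fatty acids leaned downward, with 17 of 31 genes lower and 9 higher (24 and 5 with library size alone) and a median log2 fold change of -0.34. Cd36, a fatty acid and scavenger receptor, fell from 3276, 3384 and 3165 CPM to 1381, 1184 and 1106 CPM. Lpl, lipoprotein lipase, fell from 2671, 3027 and 3267 CPM to 1099.8, 941 and 921 CPM. Pparg, the transcription factor behind many of these genes, fell from 37.2, 38 and 39.1 CPM to 3.71, 6.68 and 6.77 CPM. Fabp4, a fatty acid carrier, fell from 70.2 ± 6.9 to 21.9 ± 1.36 CPM. Acsl1 went against them. This acyl-CoA synthetase rose from 45, 43.9 and 50.9 CPM to 1727, 1566 and 1521 CPM (log2 fold change 5.10 ± 0.067, adjusted p = 8.3e-54), whereas Acsl3 fell from 24.1 ± 2.5 to 3.11 ± 1.26 CPM. Cpt1a, which commits long-chain fatty acids to mitochondrial oxidation, rose from 145, 157 and 162 CPM to 196, 208 and 206 CPM, a rise that was absent with library size alone (log2 fold change -0.028).

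Genes of fatty acid and cholesterol synthesis mostly fell. Of 13 genes of fatty acid synthesis and desaturation 9 were lower and 3 higher, with a median of -0.997, and of 23 genes of cholesterol synthesis 18 were lower and 2 higher (0 higher with library size alone), with a median of -1.45. Fasn, fatty acid synthase, fell from 118, 107 and 125 CPM to 17.1, 19.4 and 17.5 CPM. The desaturase gene Fads1 fell from 88.9 ± 7.87 to 18.8 ± 3.21 CPM and the elongase gene Elovl6 from 12.4 ± 1.57 to 1.9 ± 0.899 CPM. Fads2, another desaturase gene, had 38 reads at rest and 0 after activation, and Me1, the malic enzyme that supplies NADPH, rose from 2.48 ± 0.0961 to 9.5 ± 0.670 CPM. Of the sterol genes, Sqle, squalene epoxidase, fell from 38.5, 39 and 48.2 CPM to 6.59, 4.8 and 5.14 CPM. Idi1, an isomerase of the pathway, fell from 8.67 ± 0.196 to 0.344 ± 0.428 CPM and Srebf2, which drives the pathway, from 88.5 ± 2.46 to 24.3 ± 0.514 CPM. Among 13 LXR targets and efflux genes 6 were higher and 4 lower (5 and 8 with library size alone), again near the background of 35.3%. Ch25h, which makes 25-hydroxycholesterol, rose from 0.930, 0.852 and 0.132 CPM to 21, 19.4 and 19.6 CPM. Npc2, a lysosomal cholesterol carrier, rose 2.86-fold to 2469.5 ± 42.8 CPM and the efflux pump gene Abcg1 2.81-fold. Apoe fell from 2273 ± 91.2 to 1377 ± 113 CPM and Scarb1, a receptor for high-density lipoprotein, from 57.7 ± 2.14 to 28 ± 3.24 CPM.

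The NRF2 and glutathione list gave 14 higher and 0 lower of 18, with a median log2 fold change of 1.82, and it holds the gene with the largest gain in CPM. That was Prdx1, a peroxiredoxin, which went from 2521, 2486 and 2272 CPM to 15675, 14371 and 13953 CPM. Hmox1, heme oxygenase, rose from 989, 1068 and 1084 CPM to 10686, 10906 and 11207 CPM (log2 fold change 3.38 ± 0.060, adjusted p = 3.3e-47). Slc7a11, the cystine transporter, rose 21.3-fold, Sod2 16.9-fold and Gclm 3.91-fold. Nfe2l2, which encodes NRF2, was at 189 ± 4.55 and 174 ± 2.01 CPM and did not pass (adjusted p = 0.051). It was called lower with the size factors of DESeq2 in edgeR (adjusted p = 0.045), when weakly counted genes were kept (adjusted p = 0.018) and with library size alone (-0.54 on the log2 scale, adjusted p = 8.4e-13), where the list had 3 lower genes. The next largest gains in CPM were those of Psap and Fth1, followed by Hmox1 and Gbp2. Psap, the precursor of lysosomal saposins, went from 8391, 8114 and 7909.7 CPM to 19611, 18759 and 19512 CPM. Fth1, the ferritin heavy chain that stores iron, rose from 12582, 12002 and 11849.5 CPM to 23184, 22990.4 and 22975 CPM.

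Of 26 genes of the unfolded protein response, 16 fell and 5 rose, with a median of -0.39. Chaperones of the endoplasmic reticulum were lower: Pdia6 fell from 232 ± 4.57 to 115 ± 17.8 CPM, Calr from 1020.2 ± 20.5 to 659 ± 53.7 CPM and Hspa5 from 744 ± 8.27 to 668 ± 23.9 CPM. Herpud1, which serves degradation at the endoplasmic reticulum, fell from 29.6 ± 3.85 to 12.7 ± 0.740 CPM. The members that rose included Atf4, 2.18-fold, Ddit3, 2.37-fold, and Cebpb, from 36.4, 19.2 and 25.6 CPM to 408, 321 and 364 CPM. The first resting library of Cebpb lay well above the second. Atf4 and Ddit3 belong to the arm shared with amino acid stress.

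Genes of cell division fell, several of them to few or no reads. Of 31 DNA replication genes 29 fell, with a median log2 fold change of -2.99, and of 28 mitosis genes 27 fell, with a median of -4.27. Mki67, the proliferation marker, went from 182, 169 and 186 CPM to 10.9, 11.5 and 10.5 CPM. Top2a, topoisomerase II, fell from 157, 141 and 163 CPM to 4.12, 2.71 and 2.1 CPM. Mcm6 of the replicative helicase, whose promoter is shown above, fell from 161, 158 and 178 CPM to 14.2, 14.6 and 13.1 CPM, and Rrm2, the ribonucleotide reductase subunit of S phase, from 47.4 ± 4.18 to 0.554 ± 0.638 CPM. Pcna, the sliding clamp, fell less, from 379 ± 29 to 242 ± 11.8 CPM. Clspn, which serves the replication checkpoint, had the largest fitted decrease, from 31.5, 27.7 and 35 CPM to 0 reads in all 3 libraries, at least 146-fold lower. Cyclin A gene Ccna2 went from 896 reads over the group to 3, a ratio of 188 with an interval of 64.1 to 913, Pclaf from 785 to 2 reads and Anln from 30.6 ± 2.92 to 0.354 ± 0.105 CPM. Cenpf had 0 reads after activation and was at least 92.9-fold lower. Replication-dependent histone genes were among the largest decreases: Hist1h1b went from 60.3, 53.9 and 54.1 CPM to 0.206, 0.626 and 0.233 CPM, Hist1h3b from 36.1 ± 4.13 to 0.440 ± 0.247 CPM and Hist1h3c from 696 reads to 1. Messages of these histones lack a poly(A) tail and near-identical copies exist, so their counts depend on the library method and on how shared reads were assigned. A few members rose: Ccne1, cyclin E1, 2.98-fold and Rfc3 1.25-fold among replication genes, the latter not past the test in DESeq2 (adjusted p = 0.088) and at -0.10 on the log2 scale with library size alone, and Tpx2 1.73-fold in the mitosis list.

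Outside the cell cycle, the largest fitted decreases were those of Nptx1, Slco2b1 and Lama3. Nptx1, a pentraxin, went from 99.9, 126 and 188 CPM to 0.412, 0.417 and 0.467 CPM, and its libraries differed more at rest than those of the others. Slco2b1, an organic anion transporter, went from 39.6, 44.9 and 49.2 CPM to 0.618, 0.209 and 0.233 CPM. Lama3, a laminin chain, went from 45.7, 45 and 43.5 CPM to 0.206, 0.209 and 0.467 CPM. The largest losses in CPM were of abundant genes. Lyz2, lysozyme, fell from 13968, 13303 and 11866 CPM to 3403, 3062 and 2857 CPM, each activated library far below each resting one. Ctsd, cathepsin D, fell from 14979, 13804 and 12863 CPM to 7633, 7038 and 6868 CPM. Lrp1, a lipoprotein and scavenger receptor, fell from 3528, 3421 and 3253 CPM to 776, 835 and 804 CPM. Eef1a1, a translation elongation factor, fell from 5277, 5452 and 5452 CPM to 3075, 2949 and 2853 CPM. Cd36, given above, was the fifth.

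Of 22 tested phagocytic, Fc and scavenger receptor genes, 9 rose and 11 fell, beside 35.3% of all genes tested in each direction, with a median log2 fold change of -0.15. Several Fc receptor genes were higher: Fcgr1, a receptor for IgG, rose from 90.9, 104 and 110.1 CPM to 674, 710.1 and 744 CPM, the receptor gene Fcgr4 16.2-fold and the signalling chain gene Fcer1g 2.12-fold. The inhibitory receptor gene Fcgr2b was at 30.3 ± 7.11 and 37.2 ± 9.15 CPM and did not pass (adjusted p = 0.30), and Tyrobp, another signalling chain, fell from 732 ± 41.2 to 486 ± 56.4 CPM. Mertk and Axl, receptors for dying cells, rose 4.62-fold and 4.03-fold. Scavenger and lectin receptors moved in both directions. Mrc1, the mannose receptor, fell from 1167, 1156 and 1090.2 CPM to 38.9, 54 and 41.1 CPM. Stab1, a scavenger receptor, fell from 2368, 2285 and 2234 CPM to 267, 281 and 291 CPM and Trem2, a lipid receptor, from 755 ± 9.6 to 197 ± 12.7 CPM. The lectin genes Clec4n and Clec7a, which serve recognition of fungi, rose 14.5-fold and 2.05-fold. Cd163 went from 3.22 ± 1.08 CPM to 0 reads, at least 15.1-fold lower. Msr1, a class A scavenger receptor, was at 545 ± 24.8 and 511 ± 29.4 CPM (adjusted p = 0.11; -0.51 and called lower with library size alone), and its relative Marco was at 0.399, 0.284 and 1.32 CPM in M0 and 50.8, 19.2 and 33.9 CPM in IFNγ + LPS, where the first library lay well above the second.

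Of 26 lysosomal genes 14 were higher and 11 lower (7 and 17 with library size alone), against 35.3% of all genes in each direction, with a median of 0.18. Ctsc, the protease that activates granzymes, rose from 146, 129 and 132 CPM to 2389.7, 2222 and 2013 CPM and Ctsh, another cathepsin, 7.59-fold. Hexa, a hexosaminidase, fell from 936 ± 8.47 to 372 ± 35.7 CPM, Ctsl from 2643 ± 38.9 to 1359 ± 96.5 CPM and Atp6v0d2, a subunit of the proton pump, from 520.4 ± 42.5 to 173 ± 11.2 CPM. Macrophage lineage genes gave 4 higher and 9 lower of 15. Spi1, which encodes PU.1, rose 2.07-fold and Adgre1, the F4/80 antigen, 1.82-fold. Csf1r, the CSF-1 receptor, fell from 1197, 1148 and 1197 CPM to 912, 857 and 810.2 CPM. Cx3cr1, the fractalkine receptor, fell from 12.6, 13.1 and 17 CPM to 0.206, 0.417 and 0.233 CPM. Dendritic cell markers summed to 87.9 to 93.8 CPM in M0 and 759.5 to 799 CPM in IFNγ + LPS, both with DGAT1i, nearly all of it from Bst2, an interferon-induced gene of the list above, at 91.2 ± 3.15 and 774 ± 21.3 CPM. The 4 dendritic markers that could be tested all rose. Beside Bst2, they were Ccr7, the homing receptor of dendritic cells, from 1 read over the resting group to 59 (ratio 93.8, interval 16.2 to 3766), Clec9a from 1 read to 34 (ratio 54, interval 9.07 to 2197) and Xcr1 from 0 reads to 12 (at least 6.36-fold). Siglech and Cd209a, which define dendritic cell types, were at 0 reads, and Flt3 and Zbtb46 had too few reads to be tested. The part of such cells in the results was not tested.

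Activation with DGAT1i ran in the same direction as activation without it for nearly all genes that moved strongly. The contrasts share no library. Of the 1637 genes that rose over 2-fold with DGAT1i, 1616 had a fold change of the same sign without it, as had 1783 of the 1799 that fell. Across the 11760 genes the log2 fold changes of the 2 contrasts had a Pearson's r of 0.952 and a Spearman's rho of 0.908, given as a description, since genes are not independent. The difference of the log2 fold changes, with minus without DGAT1i, was tested for each gene. It was positive for 1019 genes (8.66% of those tested) and negative for 1152 (9.80%), with a median of -0.014 over all genes, and it exceeded 2-fold for 273 of the positive and 115 of the negative ones. Which sign was the more frequent depended on the processing. With the size factors of DESeq2 in edgeR 1083 were positive and 1045 negative, and in DESeq2 814 and 795. With library size alone they were 1229 and 882, with a median of 0.035. Among the genes that rose over 2-fold, 275 (16.8%) rose less with DGAT1i than without it and 152 (9.29%) rose more. Among those that fell over 2-fold, 240 (13.3%) fell less and 119 (6.61%) fell more. The median log2 fold change was 1.95 with DGAT1i and 2.06 without it for the former genes, and -1.75 and -2.02 for the latter. Since the genes were selected by the contrast with DGAT1i, these shares are descriptions.

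**Figure D4:**
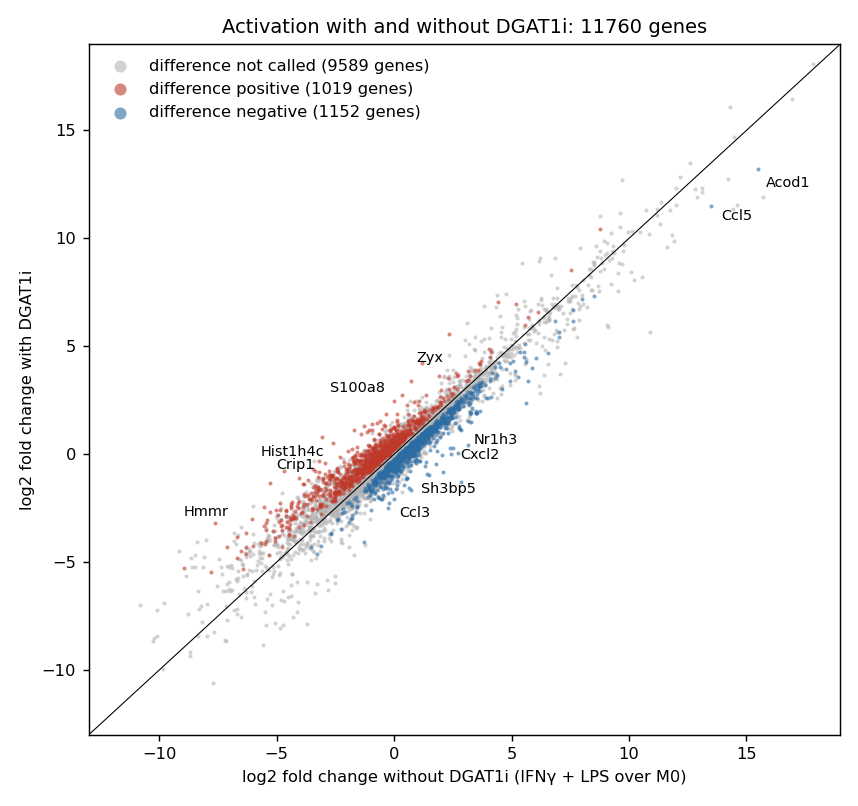
Log2 fold change of IFNγ + LPS over M0 with DGAT1i (y axis) against that without DGAT1i (x axis) for the 11760 genes tested; the line marks equal change. Red points are the 1019 genes with a positive and blue points the 1152 with a negative difference at an adjusted p under 0.05, and most points lie along the line.

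Crip1, Hist1h4c, Tubb5 and Zyx were among the 5 genes with the smallest p for a positive difference and a mean of at least 10 CPM. Crip1, a LIM domain protein gene, fell from 133, 117 and 131 CPM to 77.2, 62.8 and 71.9 CPM with DGAT1i, and without it was at 173, 182 and 181 CPM in M0 and 37.5, 32.4 and 32.6 CPM in IFNγ + LPS, a difference of 1.54 ± 0.11 (SE, log2 scale, adjusted p = 2.2e-16). Hist1h4c, a histone gene, fell from 82.9, 76 and 79.8 CPM to 59.1, 57.8 and 59.5 CPM with DGAT1i, and without it was at 171, 168 and 141 CPM in M0 and 39, 44.5 and 38.4 CPM in IFNγ + LPS, a difference of 1.54 ± 0.11 (adjusted p = 7.3e-16). The tubulin gene Tubb5 had log2 fold changes of -0.18 with and -1.18 without DGAT1i. In these 3 genes the M0 libraries with DGAT1i lay below and the activated libraries with DGAT1i above their counterparts without it. Zyx, a focal adhesion gene, rose more with DGAT1i, by 3.74 against 2.65 on the log2 scale. Mitosis genes lay on this side: 11 of 28 had a positive and 0 a negative difference, beside 8.66% and 9.80% of all genes. Their median log2 fold change was -4.27 with and -5.81 without DGAT1i. Mki67 fell from 179 to 11 CPM on average with DGAT1i, and without it was at 457, 508 and 383 CPM in M0 and 9.9, 11.9 and 8.99 CPM in IFNγ + LPS. The M0 libraries with DGAT1i were thus the lower ones, while the activated libraries overlapped. The positive difference of Mki67 was 1.42 ± 0.22 (adjusted p = 7.4e-05).

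The 5 genes with the smallest p for a negative difference were Ms4a6c, Sh3bp5, Tnfaip2, Slc11a1 and Lair1. Ms4a6c, a membrane protein gene, rose from 94.2, 101 and 87.9 CPM to 379, 358 and 348 CPM with DGAT1i, and its log2 fold change was 1.94 with and 3.23 without it. Tnfaip2, a TNF-induced gene, had log2 fold changes of 2.14 with and 3.30 without DGAT1i. Slc11a1, the NRAMP1 metal transporter of phagosomes, had 1.21 and 2.17. Sh3bp5, a Rab11 exchange factor gene, had opposite signs. It went from 64, 67 and 63.2 CPM to 27.8, 29.4 and 30.4 CPM with DGAT1i and from 37.8, 35 and 37 CPM to 51, 55.3 and 50.0 CPM without it, a difference of -1.66 ± 0.12 (adjusted p = 7.3e-16). Lair1, an inhibitory collagen receptor, had log2 fold changes of -1.59 with and -0.31 without DGAT1i. In all, 277 of the 11760 genes tested were called in the contrast with DGAT1i and had a called difference and a fold change of the opposite sign without it. The change without DGAT1i was taken by its sign alone, so that changes near 0 may be among these.

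Several inflammatory and metabolic genes given above had a called difference. Ccl3, which fell with DGAT1i, was at 34, 40.2 and 39.4 CPM in M0 and 35.8, 29.5 and 31.7 CPM in IFNγ + LPS without it, where the groups lay closer together (difference -2.03 ± 0.16, adjusted p = 1.8e-14). Cxcl2 had a log2 fold change of 0.28 with and 2.36 without DGAT1i (difference adjusted p = 1.9e-04). At rest it had 20, 24 and 24 reads with and 6, 13 and 8 without DGAT1i. After activation it had 13, 23 and 16 reads with and 29, 40 and 33 without it. A CPM was worth 7.04 to 7.58 reads at rest with and 6.88 to 7.51 without DGAT1i. In activated libraries it was worth 4.28 to 4.86 and 4.75 to 5.55 reads. Of the toll-like receptor and NF-κB list, 11 of 30 genes had a negative and 3 a positive difference, beside 9.80% and 8.66% of all genes. Such a share was not particular to this list. The NRF2 list had 8 of 18 negative, macrophage lineage 6 of 15 and phagocytic receptors 8 of 22 (3, 3 and 4 positive). The unfolded protein response list had 9 of 26 and the TCA cycle list 8 of 25 (3 and 2 positive). The IFN-γ and type I interferon lists had 3 of 26 and 4 of 30, nearer the background (2 and 1 positive). Tnfaip3 had log2 fold changes of 2.37 with and 3.23 without DGAT1i, and Tnf of the cytokine list 3.37 and 4.07. Cd14, the LPS co-receptor, was positive, with 0.16 and -0.73, where the former was -0.26 with library size alone. At rest Cd14 had 677, 714 and 783 reads with and 1076, 1401 and 1161 without DGAT1i. After activation it had 564, 517 and 450 reads with and 496, 564 and 523 without it. Its difference thus lay mostly in the resting libraries. In the MHC class I list 9 of 19 differences were negative and 0 positive, among them H2-K1, with log2 fold changes of 2.73 and 3.07, and B2m, with 2.25 and 2.63. At rest H2-K1 had 3857, 3861 and 4225 reads with and 2985, 3572 and 3141 without DGAT1i. After activation it had 17630, 16928 and 15378 reads with and 17618, 21390 and 20109 without it. Its resting libraries with DGAT1i thus lay above those without it.

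Lipid and stress genes with a called difference were Nr1h3, Cpt1a, Scd2, Asns and Trib3 among others. Nr1h3, which encodes LXRα, went from 27.6, 23.7 and 22.2 CPM to 58.9, 56.1 and 47.9 CPM with DGAT1i and from 23.2, 13.7 and 20.7 CPM to 149, 123 and 125 CPM without it, so that the activated libraries with DGAT1i lay below those without (difference -1.63 ± 0.21, adjusted p = 4.5e-05). Cpt1a had log2 fold changes of 0.39 with and 1.06 without DGAT1i, and Scd2, a desaturase, of 0.36 and -0.55, where the former was -0.064 with library size alone. Asns, asparagine synthetase, had -0.33 and 1.06, and Trib3, a target of ATF4, 1.48 and 3.28. The difference for Dgat1 was -0.30 ± 0.19 and did not pass (adjusted p = 0.29). Ptges had a negative difference, -1.87 ± 0.51 (adjusted p = 0.0054), with activated libraries at 38.1, 37.1 and 36 CPM without DGAT1i, below the 48.6, 46.3 and 39.5 CPM with it. Its difference thus lay in the few reads of the M0 libraries, 0.145, 0.266 and 0.696 CPM without and 1.73, 0.852 and 2.51 CPM with DGAT1i. Without replicate 3 of the latter it did not pass (-1.48, adjusted p = 0.063).

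**Figure D5:**
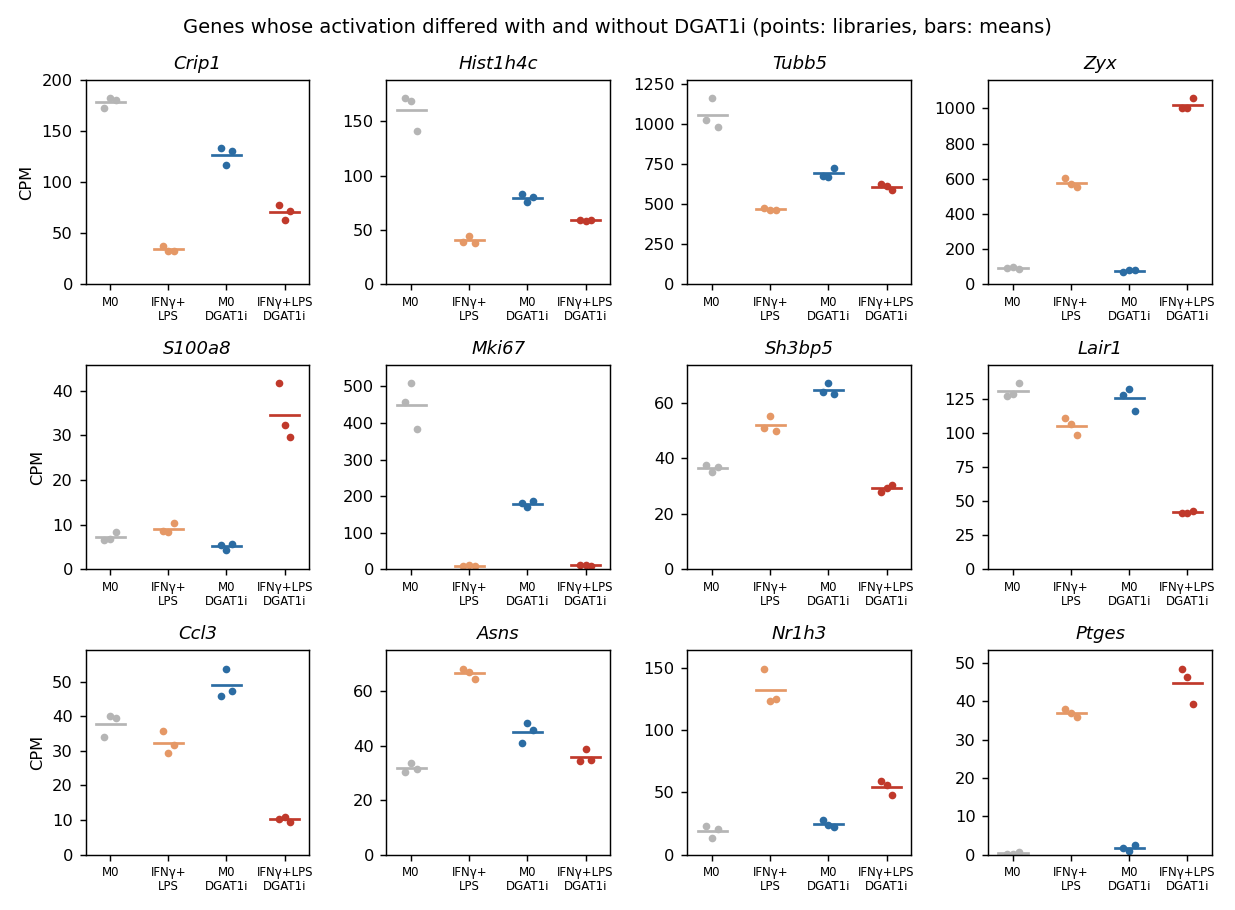
CPM (y axis, from 0) of 12 genes with a called difference in the 4 groups of 3 libraries (x axis); points are libraries and bars means. With DGAT1i, Crip1, Hist1h4c and Mki67 start lower at rest than without it, Lair1 and Ccl3 end lower after activation, and S100a8 ends higher. Ccl3 also starts higher at rest with DGAT1i.

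Markers of other cell types moved in this comparison too. Granulocyte and precursor markers summed to 32.4 to 40.8 CPM in M0 and 67.4 to 86.9 CPM in IFNγ + LPS, both with DGAT1i, with Elane, Ly6g and Retnlg at 0 reads. Of 6 tested markers 3 were higher, 1 lower and 2 not past the test after activation with DGAT1i. A positive difference was found for 5 and a negative one for 0, beside 8.66% and 9.80% of all genes. S100a8, a calgranulin chain, rose from 5.58, 4.4 and 5.67 CPM to 41.6, 32.3 and 29.7 CPM with DGAT1i and without it was at 6.54, 6.79 and 8.35 CPM in M0 and 8.63, 8.28 and 10.5 CPM in IFNγ + LPS (difference 2.38 ± 0.25, adjusted p = 7.6e-11). S100a9, the partner chain, rose from 6.11, 6.53 and 8.71 CPM to 25.9, 18.6 and 32.9 CPM with DGAT1i. Ngp, a granule protein gene, was at 5.45, 5.39 and 8.45 CPM in M0 and 8.44, 8.14 and 11 CPM in IFNγ + LPS with DGAT1i, where the groups overlapped. Its call as higher (adjusted p = 0.046) was lost in DESeq2 (adjusted p = 0.081), with library size alone (adjusted p = 0.76), when weakly counted genes were kept (adjusted p = 0.070) and in 4 of the runs without a library. Without DGAT1i it was at 9.88, 6.92 and 9.19 CPM and 0.211, 1.98 and 1.87 CPM. Mmp8, neutrophil collagenase, fell from 7.31, 6.39 and 8.05 CPM to 1.85, 1.46 and 1.4 CPM with DGAT1i. Ltf, lactoferrin, was at 5.98, 5.82 and 5.28 CPM in M0 and 3.5, 2.71 and 6.77 CPM in IFNγ + LPS (adjusted p = 0.17), and Chil3 at 2.68 ± 1.05 and 2.59 ± 0.264 CPM (adjusted p = 0.92). The part of such cells in the differences given above was not tested.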

How the data were processed

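RNA of mouse bone marrow-derived macrophages was sequenced in 12 libraries (4 groups of 3). The authors deposited a table of read counts per gene for 47937 genes on GRCm38, and DESeq2 is named in their processing notes. For the aligner and the annotation nothing is given in the sources used here, while the library kit is given differently by the labels and by the methods. Total counts of the 6 libraries compared were 4996014 to 6621671. Genes were kept by filterByExpr (11760 genes), scaled by TMM and tested with edgeR 4.0.16 in R 4.3.3 (quasi-likelihood test, robust, 1 mean per group over all 12 libraries). The contrast was IFNγ + LPS minus M0, both with DGAT1i, and its difference from the same contrast without DGAT1i was tested in the same fit. Adjusted p-values (Benjamini-Hochberg) under 0.05 were called. Where a group had 0 reads its floor was 3, summed over its libraries, and intervals are exact at 95% and, like floors, cover counting error only. The common biological coefficient of variation was 0.0507. As a check for a library deposited more than once, replicate pairs of the 6 libraries were compared, and each pair differed by more than counting noise (chi-square per gene 2.12 to 4.06), which does not show that they are separate cultures. Alternatives were other scalings (DESeq2 size factors, library size alone), filters, thresholds and tests (DESeq2 1.42.0, glmTreat), a replicate block, the 6 libraries alone and each library left out.

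Genes were named by rule. The 10 largest fitted increases and decreases were taken from called genes with a mean of at least 10 CPM and no overlap between the groups. The 5 largest gains and losses in CPM were taken without these conditions. Also named were the 5 smallest p for the difference in each direction (mean of at least 10 CPM), members of gene lists by size and role, and Dgat1 and Dgat2. The members and lists were chosen with earlier results of these data known. A few genes that the rule names are not reported here.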

Additional observations from a re-analysis of the deposited data

Results flagged for a closer look

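The response to IFNγ + LPS differed with and without DGAT1i, by the test of the difference itself (edgeR's quasi-likelihood test, adjusted p under 0.05), for 26 of the genes whose difference is given here or in the report. Each value is the log2 fold change with DGAT1i minus that without it, from 3 libraries in each of 4 groups. It can come from the resting libraries, the activated ones or both.

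A positive difference was found for 10 of them. They were Crip1 (1.54), Hist1h4c (1.54), Mki67 (1.42), Zyx (1.09) and Tubb5 (0.99), then Cd14 (0.89) and Scd2 (0.91) of the toll-like receptor and fatty acid lists. Genes of the granulocyte marker list were positive too, Ngp by 3.10, S100a8 by 2.38 and S100a9 by 2.20.

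A negative difference was found for the others. Chemokine and cytokine genes among them were Cxcl2 (-2.08), Ccl3 (-2.03) and Tnf (-0.69). Tnfaip2 (-1.16), Tnfaip3 (-0.86), Slc11a1 (-0.96), Ms4a6c (-1.29), Lair1 (-1.27) and Sh3bp5 (-1.66) were lower likewise. The metabolic and stress genes were Ptges (-1.87), Trib3 (-1.80), Nr1h3 (-1.63), Asns (-1.39) and Cpt1a (-0.67). The smallest differences were those of the class I genes B2m (-0.38) and H2-K1 (-0.34).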

How the results depend on the processing

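Of the calls of activation with DGAT1i, the scaling moved most. With library size as the only scaling, 2333 genes were higher and 6799 lower, 2905 were lower over 2-fold, and lists of small changes turned, as the respiratory chain, from 17 higher and 3 lower to 5 and 16. This turned the fold changes of Atp5b (-0.073), Cd14 (-0.26), Cpt1a (-0.028), Cxcl2 (-0.14), Dgat1 (-0.17), Fcgr2b (-0.13), Ptger4 (-0.11), Rfc3 (-0.10) and Scd2 (-0.064), with TMM mean factors of 1.14 in M0 and 0.855 in IFNγ + LPS. Ptges2 ranged from -0.20 to 0.053 as each library was left out, turning without M0 replicate 2 with DGAT1i. Chil3 ranged from -0.34 to 0.15. Counts of the difference moved most with the threshold. At an adjusted p under 0.01 the difference was positive for 626 and negative for 724 genes. Leaving out each library in turn gave 3986 to 4063 higher and 3947 to 4024 lower genes, 1670 to 1711 and 1801 to 1823 over 2-fold, and 869 to 982 positive and 1005 to 1178 negative differences. A test against a 2-fold change itself (glmTreat) called 1314 higher and 1242 lower. Of 513 recomputed differences of named genes 512 kept their direction and call, the exception being Ptges, and of 3101 recomputed fold changes 3047 did. Calls of Irf9, Pnpla2 and Ptger2 were lost, and those of Plin2, Msr1, Nfe2l2, Ptges2, Sdha and Ltf (lower, adjusted p = 0.0052) gained, with library size alone. Calls of Cd14, Ngp and Rfc3 were lost in DESeq2 and in 2 or more of the runs without a library. Msr1 (adjusted p = 0.031), Nfe2l2 (adjusted p = 0.047) and Ptger4 (adjusted p = 0.043) passed without IFNγ + LPS replicate 1, M0 replicate 1 and M0 replicate 3 with DGAT1i. Without IFNγ + LPS replicate 3 with DGAT1i Ltf passed as lower (adjusted p = 0.014), and without replicate 1 Fcgr2b as higher (adjusted p = 0.038). The causes were not tested. At 1 CPM per 4.28 to 7.58 reads, genes under about 1 CPM rest on few reads.

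The replicate numbers were not taken as pairs: deviations of same-numbered libraries correlated at -0.0011, 0.027 and 0.0021 between the groups with DGAT1i and at 0.067, 0.037 and 0.045 between the IFNγ + LPS groups, where each library correlated best with its own number. With the replicate number as a block, 4159 genes were higher and 4151 lower, 1640 and 1794 over 2-fold, and 1060 differences were positive and 1208 negative.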
